A study of Mus musculus with 8 samples.

Results

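Semaphorins, plexins and neuropilins were followed in pancreatic tumors grown in wild-type (WT) mice and in mice lacking complement C3 (C3-/-). The genes were chosen by symbol: 20 semaphorins, 9 plexins and 2 neuropilins, 31 of the 29968 genes in the count table, and 30 of them were among the 16610 genes with enough counts to be tested. Plxnb3 was the member left out of the test. WT hosts were C57BL/6J mice and C3-/- hosts were complement C3-null mice, also described as C57BL/6J. Both were males of 12 weeks that received 250000 KPC FC1245 cells in 50 µL of PBS into the pancreas. These cells are 1 line, isolated from a mouse pancreatic tumor and implanted in both genotypes, and the C3 deletion is a property of the host. The 8 tumors, 4 per genotype, were profiled by bulk RNA-seq of whole tumor, in which fewer cells of a type and less RNA per cell cannot be told apart.

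Semaphorins are secreted or membrane-bound proteins first known as repellents of growing axons. They act through plexins, large receptors whose cytoplasmic part switches off small Ras-family GTPases, and most secreted class 3 semaphorins also need a neuropilin to reach a class A plexin. In tumors the same proteins are known for effects on vessels, nerves, immune cells and the migration of cancer cells.

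Each tumor had between 13266029 and 23354212 counted reads, and levels are given as CPM, the reads of a gene scaled to the library total, after TMM scaling, or as CPM per kilobase of gene length where genes are compared with each other. Host genotype was checked on C3 itself, which had 210, 426, 226 and 324 CPM in the WT tumors and 109, 134, 100 and 101 CPM in the C3-/- tumors, so C3 reads were counted in every C3-/- tumor at a level below every WT tumor. Markers of acinar cells, the enzyme-secreting cells of the normal pancreas, set C3-/- replicate 1 apart, with a summed level of 1425 CPM against 3.28 to 10.8 CPM in the other C3-/- tumors and 102 to 359 CPM in the WT tumors. WT replicate 3 had the highest summed epithelial markers, at 8732 CPM, and the fewest genes with a count, 22174. Where leaving out any 1 tumor moved a printed log2 fold change of a family member over 0.2 in size by more than 1.5 times, the values at both ends are given beside it. This was not run for the marker and partner genes. No label says more of how the 4 tumors of a genotype relate than that they are separate samples, so p-values measure the spread between these tumors.

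Sema4f was the member with the clearest difference between hosts. This gene encodes a transmembrane class 4 semaphorin that can collapse neuronal growth cones, and it lies on chromosome 6 between 82888866 and 82916750 on the minus strand of mm39 (ENSMUSG00000000627). Its level was 14.9, 16.0, 14.7 and 18.4 CPM in the WT tumors and 7.58, 7.22, 9.46 and 7.33 CPM in the C3-/- tumors. All 4 C3-/- tumors lay below all 4 WT tumors, and the highest C3-/- value, in replicate 3, was under the lowest WT value. The WT mean was 16.0 ± 1.69 CPM (SD, n = 4) and the C3-/- mean was 7.90 ± 1.05 CPM (SD, n = 4), or 49.4% of WT. These values rest on 195 to 432 reads per WT tumor and 129 to 162 reads per C3-/- tumor.

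The log2 fold change of Sema4f in C3-/- against WT tumors was -1.02 (SE 0.17, 95% interval -1.39 to -0.64), and its unadjusted p in edgeR's quasi-likelihood test was 0.000115. After Benjamini-Hochberg adjustment over all 16610 genes the edgeR p was 0.933, so this test did not call it. DESeq2 on the same counts gave -1.03 with an adjusted p of 0.000248, which did. C3, the gene deleted in the hosts, had a log2 fold change of -1.42 and an unadjusted edgeR p of 8.55e-05. Its edgeR adjusted p was also 0.933, the lowest of all genes tested, so edgeR did not call C3 either. DESeq2 called C3 at an adjusted p of 1.2e-05. An exact two-sided permutation test of Sema4f alone gave p = 0.0286, the smallest that 4 against 4 tumors allow. The direction held with each tumor left out. The DESeq2 call was lost in 1 of these 8 fits, without WT replicate 4, where the fold change was -0.96 and the adjusted p 0.101. An annotated transcript on the opposite strand overlaps Sema4f (Gm66412, in GENCODE vM39), and the strand setting of the counting was not given in the sources used here.

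Within its own class Sema4f was a minor member. It made up 4.35% to 6.75% of the summed CPM per kilobase of the class 4 semaphorins in WT tumors and 2.19% to 3.11% in C3-/- tumors, and these ranges did not overlap. The log2 fold changes of the other class 4 members lay between -0.08 and 0.14.

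Markers of other cells were set beside this difference. Of the 4 mesothelial markers, which label the lining of the abdominal cavity, Upk3b was at 2.43, 4.67, 3.99 and 4.85 CPM in WT tumors and 2.34, 1.29, 0.883 and 1.37 CPM in C3-/- tumors. Lrrn4 was at 1.55, 3.47, 1.58 and 3.06 CPM in WT and 0.983, 0.784, 0.819 and 1.31 CPM in C3-/- tumors. Both were lower in every C3-/- tumor than in every WT tumor, as Sema4f was and as were 1.45% of all genes tested. Their log2 fold changes were -1.43 and -1.30, with unadjusted edgeR p of 0.0025 and 0.00563, neither called after adjustment. Msln and Wt1 were also lower on average, at -0.08 and -0.59, with overlapping groups, so all 4 markers had negative log2 fold changes, with a median of -0.95. The sum of the 4, most of which is Msln at 476 CPM or more in every WT tumor, overlapped between hosts at 484 to 569 CPM in WT and 363 to 547 CPM in C3-/- tumors. The part of mesothelial cells in the Sema4f difference was not tested. Schwann cell markers, named because semaphorins act on nerves, summed to 27.3 to 34.6 CPM in WT and 24.1 to 30.1 CPM in C3-/- tumors. Gfra3 was at 3 counts or fewer in every tumor and Sox10 at 0 to 0.255 CPM. Of the 7 markers, 4 were tested, 2 higher and 2 lower in C3-/- tumors. Their log2 fold changes ran from -1.03 to 0.52, with 0 at an unadjusted edgeR p below 0.05, and their part in the Sema4f difference was not tested.

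The sequence around the start of Sema4f is shown with those of Sema6b and Plxna3, the other members with an unadjusted edgeR p below 0.05, so that its composition can be seen beside theirs. Each run is 300 bases of RefSeq, from 250 before to 50 after an annotated start, read 5′ to 3′ on the gene's strand. Each was found once in GRCm39, at chr6:82916701-82917000 (minus strand), chr17:56447294-56447593 (minus strand, the upstream of 2 starts of Sema6b) and chrX:73372422-73372721 (plus strand). Capitals mark CCAAT or its reverse complement ATTGG, and the GC box GGGCGG or its reverse complement CCGCCC.
Sema4f: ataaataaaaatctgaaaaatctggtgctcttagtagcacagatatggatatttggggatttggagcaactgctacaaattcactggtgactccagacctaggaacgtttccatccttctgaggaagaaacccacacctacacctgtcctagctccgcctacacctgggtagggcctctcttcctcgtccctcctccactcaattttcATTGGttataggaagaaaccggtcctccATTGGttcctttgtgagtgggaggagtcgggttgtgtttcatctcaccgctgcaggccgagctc
Sema6b: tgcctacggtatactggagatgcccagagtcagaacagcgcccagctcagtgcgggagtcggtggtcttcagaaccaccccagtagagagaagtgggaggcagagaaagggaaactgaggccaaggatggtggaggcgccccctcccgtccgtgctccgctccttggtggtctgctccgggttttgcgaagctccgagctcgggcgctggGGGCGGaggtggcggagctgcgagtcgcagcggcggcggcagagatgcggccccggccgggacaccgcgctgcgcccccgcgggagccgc
Plxna3: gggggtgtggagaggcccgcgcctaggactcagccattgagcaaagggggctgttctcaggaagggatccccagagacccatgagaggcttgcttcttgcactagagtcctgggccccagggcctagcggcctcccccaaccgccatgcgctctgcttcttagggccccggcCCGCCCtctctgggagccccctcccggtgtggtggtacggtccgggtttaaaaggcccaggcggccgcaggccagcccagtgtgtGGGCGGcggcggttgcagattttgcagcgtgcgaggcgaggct
The Sema4f window had a GC content of 48.7%, 7 CpG dinucleotides, 2 CCAAT matches and 0 GC boxes. The Sema6b window had a GC content of 69% and 1 GC box, and the Plxna3 window 67.7% and 2 GC boxes. The second Sema6b start, not printed, had a window with a GC content of 58%, 6 CpG dinucleotides, 1 CCAAT match and 1 GC box, nearer to Sema4f in its CpG count. The entries cover 26 of the 31 members. Among these, 21 (80.8%) held a GC box in at least 1 promoter, against 38.2% of all 27025 genes with a promoter in the table, and 6 (23.1%) held CCAAT, against 41.1%. The letters TATAAA were in 0 of the 26, against 15.7% of all genes, and CACGTG was in 3 (11.5%), against 8.09%. The median promoter GC content was 63.7% for the family and 52.7% for all promoters, and the Sema4f window was below both. These are matches of letters on either strand and a description only.

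Across the whole family, edgeR called 0 of the 30 tested members at an adjusted p below 0.05, and 0% of all genes tested. At an unadjusted p below 0.05 it had 3 members, or 10%, against 5.11% of all genes. DESeq2 called 1 of the 31 members, Sema4f, against 0.0848% of the 18864 genes for which it gave an adjusted p. The members were chosen with earlier results of these data known, so these shares describe the list and do not test it. Sema4f was also the member whose groups did not overlap, 1 of 30 (3.33%), against 3.73% of all genes in either direction and 1.45% with C3-/- lower. The count of non-overlapping members was thus near the background. Of the 30 members, 21 were higher and 9 lower in C3-/- tumors, with a median log2 fold change of 0.09, where all tested genes had 8304 higher, 8306 lower and a median of -5.84e-05. For 24 of the 30 members the 95% interval of the log2 fold change lay within -1 to 1, and 21 had a fold change under 0.3 in size.

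**Figure D1:**
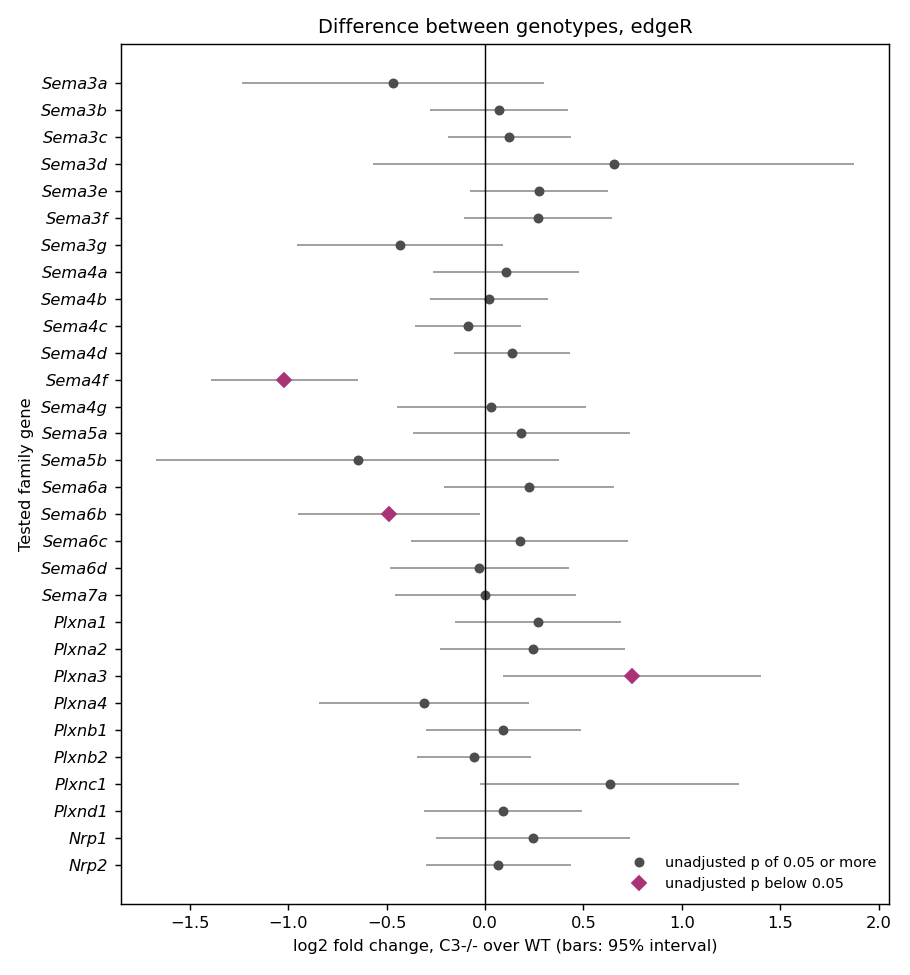
Log2 fold change of each of the 30 tested members in C3-/- against WT tumors (x axis), with horizontal bars for the 95% interval from the edgeR fit (n = 4 per genotype), genes on the y axis by class, and diamonds for an unadjusted p below 0.05. Sema4f has the interval, -1.39 to -0.64, whose upper end lies farthest below 0, and most other intervals span 0.

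Per kilobase of gene, the members covered a wide range of levels. Plxnb2 was the highest member in every tumor at 60.5 to 81.1 CPM per kilobase, and Sema7a followed at a median of 17.0, Sema4a at 15.0, Plxnd1 at 14.2 and Plxna1 at 13.2. The ranges of these 4 over the tumors overlapped, so their order was not separable, whereas Plxnb2 stood above all of them. In all, 9 members had a median over 10 CPM per kilobase, 16 lay between 1 and 10, and 6 were under 1. Sema4f, at a median of 2.28, was in the middle range.

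**Figure D2:**
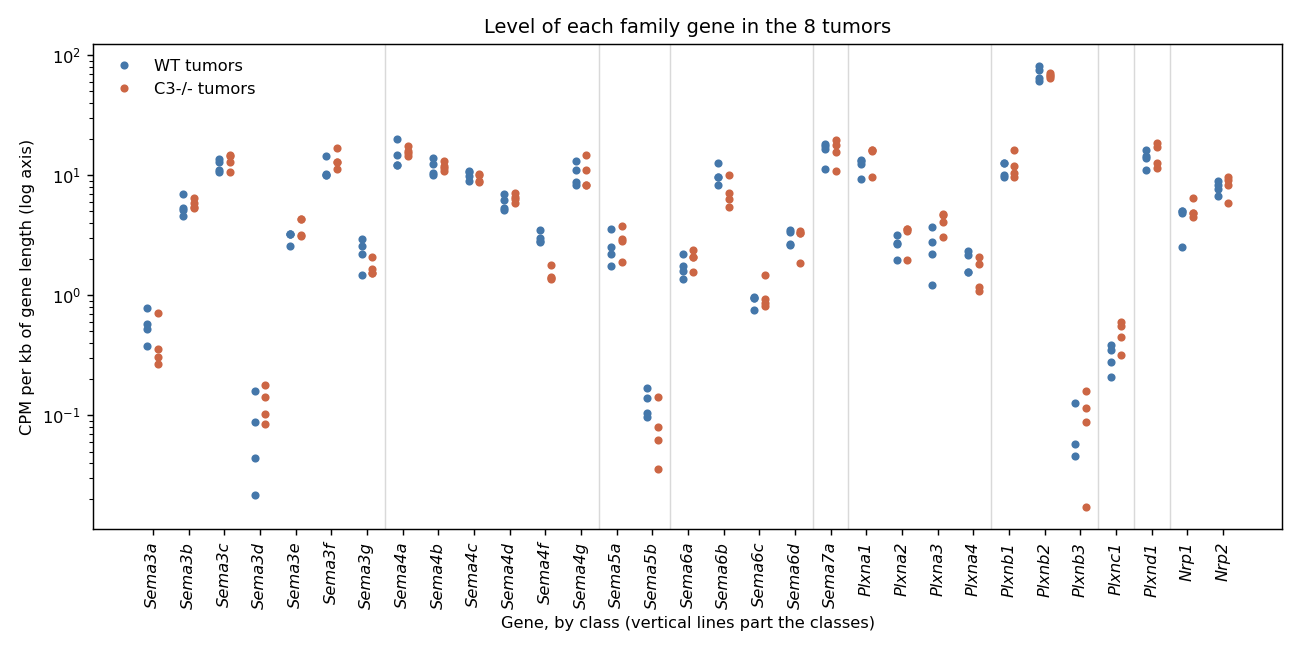
CPM per kilobase of gene length (y axis, log scale) of the 31 members in each tumor, with 1 point per tumor coloured by genotype and genes on the x axis by class. Plxnb2 is highest at a median of 67.5, and Plxnb3 in WT replicate 3, at 0 counts, cannot be drawn on a log axis.

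Among the secreted class 3 semaphorins, 5 of 7 were higher and 2 lower in C3-/- tumors, and 0 had an unadjusted p below 0.05. Sema3c, which guides neural crest and vessel development, had the highest median of the class, at 12.9 CPM per kilobase. Its range over the tumors overlapped that of Sema3f, so their order was not separable. The Sema3c level was 92.8, 75.2, 79.4 and 97.6 CPM in WT and 75.9, 104.5, 104.0 and 91.4 CPM in C3-/- tumors. These groups overlapped, with a log2 fold change of 0.12 (SE 0.14, unadjusted edgeR p 0.403). Sema3f, a ligand of neuropilin 2, had a median of 12.1 CPM per kilobase and a log2 fold change of 0.27, which was 0.15 without C3-/- replicate 2 and 0.42 without WT replicate 2, where its groups did not overlap. Sema3b, its neighbor on chromosome 9 at a gap of 72271 bases, had 0.07.

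The remaining class 3 members were lower in level. Sema3e, which binds plexin D1 without a neuropilin, ranged from 24.1 to 30.2 CPM in WT and from 29.2 to 39.9 CPM in C3-/- tumors. Sema3a, the classic growth-cone collapsing ligand, was at 5.22 to 10.9 CPM in WT and 3.70 to 9.79 CPM in C3-/- tumors, with a log2 fold change of -0.47 (SE 0.35). That value ran from -0.87 without C3-/- replicate 4, where its groups did not overlap, to -0.26 without WT replicate 4. Sema3g, a ligand made by vessels, was at 6.72 to 13.3 CPM in WT and 6.93 to 9.46 CPM in C3-/- tumors, with a log2 fold change of -0.43 and an unadjusted edgeR p of 0.0956. The groups of all 8 tumors overlapped for each of them, but those of Sema3g did not without WT replicate 1, where its log2 fold change was -0.60. Sema3d was rare, at 0.187 to 1.36 CPM in WT and 0.728 to 1.53 CPM in C3-/- tumors. Sema3a, Sema3c, Sema3d and Sema3e lie on chromosome 5, where the gap from Sema3d to Sema3a is 0.536 Mb and from Sema3a to Sema3e 0.423 Mb.

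The class 4 semaphorins other than Sema4f differed little between hosts. Sema4a, a membrane ligand that acts on T cells, had the highest median of the class per kilobase. It was 15.0 against 9.93 for Sema4g, which had the higher mean CPM in both hosts. The Sema4a range per kilobase overlapped that of Sema4b, so the order of Sema4a and Sema4b was not separable. The Sema4a level was 107.4, 65.2, 79.2 and 66.3 CPM in WT and 82.7, 95.3, 86.4 and 77.7 CPM in C3-/- tumors. These groups overlapped, with a log2 fold change of 0.11 (SE 0.17, unadjusted edgeR p 0.542). Sema4d, the plexin B1 ligand also called CD100, was at 39.2 to 53.3 CPM in WT and 45.5 to 54.2 CPM in C3-/- tumors, a log2 fold change of 0.14. Sema4c, a plexin B2 ligand, was the steadiest of the class, with a coefficient of variation of 8.38% over the 8 tumors and a log2 fold change of -0.08. Sema4b and Sema4g had log2 fold changes of 0.02 and 0.03, with Sema4g spread from 71.4 to 127.3 CPM.

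The class 5 semaphorins carry thrombospondin repeats. Sema5a was at 67.2, 46.8, 32.8 and 41.0 CPM in WT and 35.6, 70.1, 52.5 and 55.2 CPM in C3-/- tumors. Its groups overlapped and its log2 fold change was 0.18 (SE 0.25, unadjusted edgeR p 0.475). Sema5b was near the bottom of the family, between 0.252 and 1.21 CPM in all tumors.

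The class 6 semaphorins are transmembrane ligands of class A plexins. Sema6b, a plexin A4 ligand, was the highest of them per kilobase and had 38.4, 50.5, 38.6 and 32.8 CPM in WT and 39.8, 25.1, 21.4 and 27.9 CPM in C3-/- tumors. The groups overlapped because C3-/- replicate 1 lay among the WT tumors while the other C3-/- tumors lay below all of them. The WT mean was 40.1 ± 7.43 CPM and the C3-/- mean 28.6 ± 7.96 CPM (SD, n = 4 each). The log2 fold change was -0.49 (SE 0.21, 95% interval -0.95 to -0.02). The unadjusted edgeR p was 0.041 and the adjusted p 0.971, and DESeq2 gave an adjusted p of 0.80. Without C3-/- replicate 1 the log2 fold change was -0.69, with an unadjusted edgeR p of 0.00258 and an adjusted p of 0.360, and DESeq2 then called Sema6b as well as Sema4f, among 116 genes in all against 16 with every tumor kept. The unadjusted edgeR p of Sema6b was below 0.05 in 2 of the 8 fits that left out 1 tumor, those without C3-/- replicate 1 or WT replicate 4, and was highest at 0.120 without WT replicate 2. The gene lies 1063627 bases from C3 on chromosome 17.

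Sema6d, a plexin A1 ligand, was at 27.6 to 36.7 CPM in WT and 34.9 to 36.1 CPM in all C3-/- tumors except replicate 1, which had 19.7 CPM. Sema6a and Sema6c were at 11.9 to 20.9 and 4.44 to 8.80 CPM over the tumors, with log2 fold changes of 0.22 and 0.18. The first was 0.12 without WT replicate 1 and 0.36 without WT replicate 2. Sema7a, which is anchored to the membrane by a lipid and also binds integrins, was at 54.7, 60.2, 37.3 and 57.5 CPM in WT and 58.7, 35.6, 51.2 and 64.5 CPM in C3-/- tumors. One tumor of each genotype was low, the groups overlapped, and the log2 fold change was 0.00 (SE 0.21, unadjusted edgeR p 0.993).

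By length-scaled level, class 4 made up 41.2% to 48.1% of all semaphorin CPM per kilobase in the tumors, class 3 26.0% to 32.6%, Sema7a 8.08% to 16.1%, class 6 9.25% to 14.6% and class 5 1.62% to 2.91%. The 20 ligands had 13 higher and 7 lower in C3-/- tumors, and their log2 fold changes had a median of 0.05. The 10 tested receptors had 8 higher and 2 lower, with a median of 0.17.

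Among the class A plexins, which pair with neuropilins and bind class 6 ligands, Plxna3 had the largest difference. Plxna3, on the X chromosome, was at 22.0, 29.3, 9.57 and 17.4 CPM in WT and 24.2, 37.6, 37.0 and 32.4 CPM in C3-/- tumors. The groups overlapped at WT replicate 2 and C3-/- replicate 1, and WT replicate 3 was the lowest tumor. The means were 19.6 ± 8.27 CPM in WT and 32.8 ± 6.16 CPM in the C3-/- hosts (SD, n = 4 each). The log2 fold change was 0.75 (SE 0.30, 95% interval 0.09 to 1.40). The unadjusted edgeR p was 0.0297, the adjusted p 0.971, and the DESeq2 adjusted p 0.628. The exact permutation p was 0.0571. Without WT replicate 3 the log2 fold change was 0.52, and the unadjusted edgeR p was below 0.05 in 5 of the 8 fits that left out 1 tumor, but not when the tumor left out was C3-/- replicate 2, C3-/- replicate 3 or WT replicate 4.

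Plxna1, the highest class A plexin, was at 120.2, 111.7, 83.7 and 119.6 CPM in WT and 86.7, 148.1, 147.3 and 143.0 CPM in C3-/- tumors. All C3-/- tumors except replicate 1 lay above every WT tumor, and the log2 fold change over all 8 was 0.27 (SE 0.19, unadjusted edgeR p 0.184). It was 0.42 without C3-/- replicate 1 and 0.16 without WT replicate 3. Plxna2 divided the tumors in the same way, at 33.9 to 54.5 CPM in WT and 59.0 to 61.0 CPM in C3-/- replicates 2 to 4, with 33.8 CPM in replicate 1. Its log2 fold change was 0.24 over all tumors, 0.41 without C3-/- replicate 1 and 0.13 without WT replicate 3. Plxna4 was at 22.0 to 33.0 CPM in WT and 15.3 to 29.6 CPM in C3-/- tumors, with a log2 fold change of -0.31. Leaving out C3-/- replicate 1 gave -0.17, and leaving out C3-/- replicate 4 gave -0.50.

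**Figure D3:**
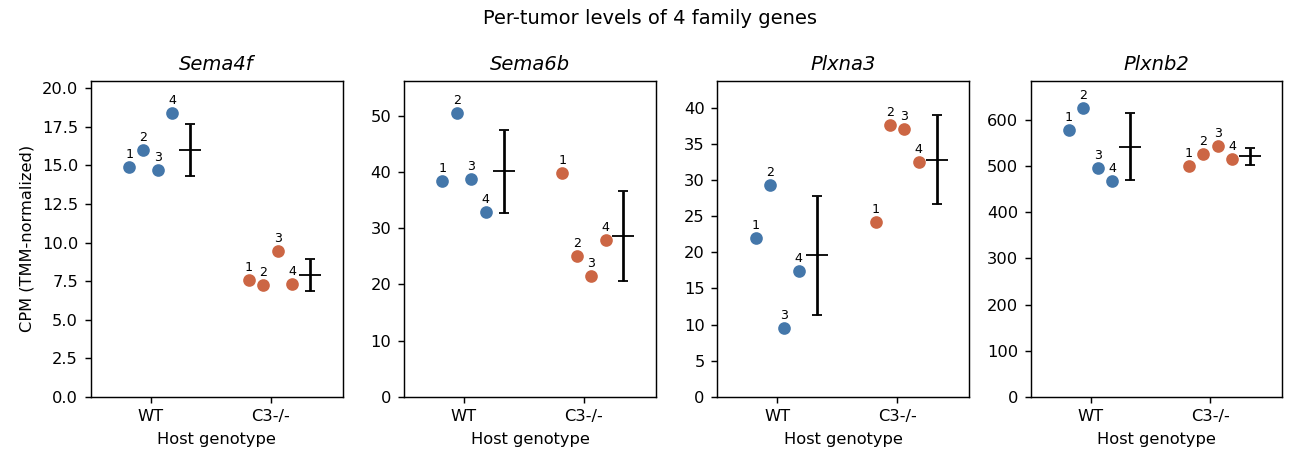
TMM-normalized CPM (y axis) of Sema4f, Sema6b, Plxna3 and Plxnb2 in each tumor, with the replicate number beside each point and bars for the mean ± SD of each genotype (n = 4). The 2 genotypes are separated for Sema4f, while C3-/- replicate 1 lies among the WT tumors for Sema6b.

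Plxnb2, a receptor of class 4 semaphorins widely made by epithelia, carried 54.8% to 64.6% of the plexin CPM per kilobase in the tumors. Its level was 578, 626, 497 and 467 CPM in WT and 500, 526, 543 and 516 CPM in C3-/- tumors. The means were 542 ± 72.9 and 521 ± 18.02 CPM (SD, n = 4 each), and the log2 fold change was -0.06 (SE 0.13, 95% interval -0.35 to 0.23, unadjusted edgeR p 0.672). Plxnb1, the receptor of Sema4d, was at 93.2 to 122.2 CPM in WT and 92.6 to 155.1 CPM in C3-/- tumors, a log2 fold change of 0.09. Plxnb3 had 6, 11, 0 and 7 reads in WT and 16, 2, 9 and 19 reads in C3-/- tumors, too few for the test.

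Plxnc1, the receptor of Sema7a, was at 3.23, 2.34, 1.73 and 2.94 CPM in WT and 2.67, 3.75, 4.60 and 4.98 CPM in C3-/- tumors. Its groups overlapped through C3-/- replicate 1, with a log2 fold change of 0.63 (SE 0.30, unadjusted edgeR p 0.0573), or 0.79 without that tumor. Its median of 0.370 CPM per kilobase stood beside 17.0 for its ligand. Plxnd1, the endothelial receptor of Sema3e, was at 101.8, 119.3, 81.3 and 105.5 CPM in WT and 83.1, 92.0, 124.8 and 134.9 CPM in C3-/- tumors, an overlap with a log2 fold change of 0.09 (SE 0.18, unadjusted edgeR p 0.622). Summed endothelial markers overlapped too, at 218 to 301 CPM in WT and 188 to 309 CPM in C3-/- tumors.

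Nrp2, which binds class 3 semaphorins and lymphatic VEGF-C, was the higher neuropilin per length, with 55.1% to 72.5% of the neuropilin CPM per kilobase. It was at 90.2, 97.6, 79.1 and 105.3 CPM in WT and 69.7, 97.3, 114.5 and 108.9 CPM in C3-/- tumors, a log2 fold change of 0.07 (SE 0.16, unadjusted edgeR p 0.688). Nrp1, the partner of Sema3a and VEGF-A, was at 47.4 to 49.2 CPM in WT replicates 1, 2 and 4, at 24.9 CPM in WT replicate 3, and at 44.1 to 63.6 CPM in C3-/- tumors. Its log2 fold change was 0.24 (SE 0.22) over all tumors, 0.058 without WT replicate 3 and 0.32 without WT replicate 2.

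The tumors did not contribute evenly to these differences. WT replicate 3 was the lowest tumor for 10 of the 30 tested members and the highest for 0, and C3-/- replicate 2 was the highest for 9. C3-/- replicate 1 was the lowest for 7 and the highest for 1. These counts were not made over all genes tested, so a trait of a whole tumor and one of the family cannot be told apart. With C3-/- replicate 1 left out, 7 of 30 members (23.3%) had an unadjusted edgeR p below 0.05, against 10.7% of all genes then tested: Sema4f and Sema6b lower, and Sema3e, Plxna1, Plxna2, Plxna3 and Plxnc1 higher. In that comparison the groups did not overlap for 6 members (20%), against 13.8% of all genes. edgeR called 0 members there as well. The part of its acinar cell content in these differences was not tested.

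**Figure D4:**
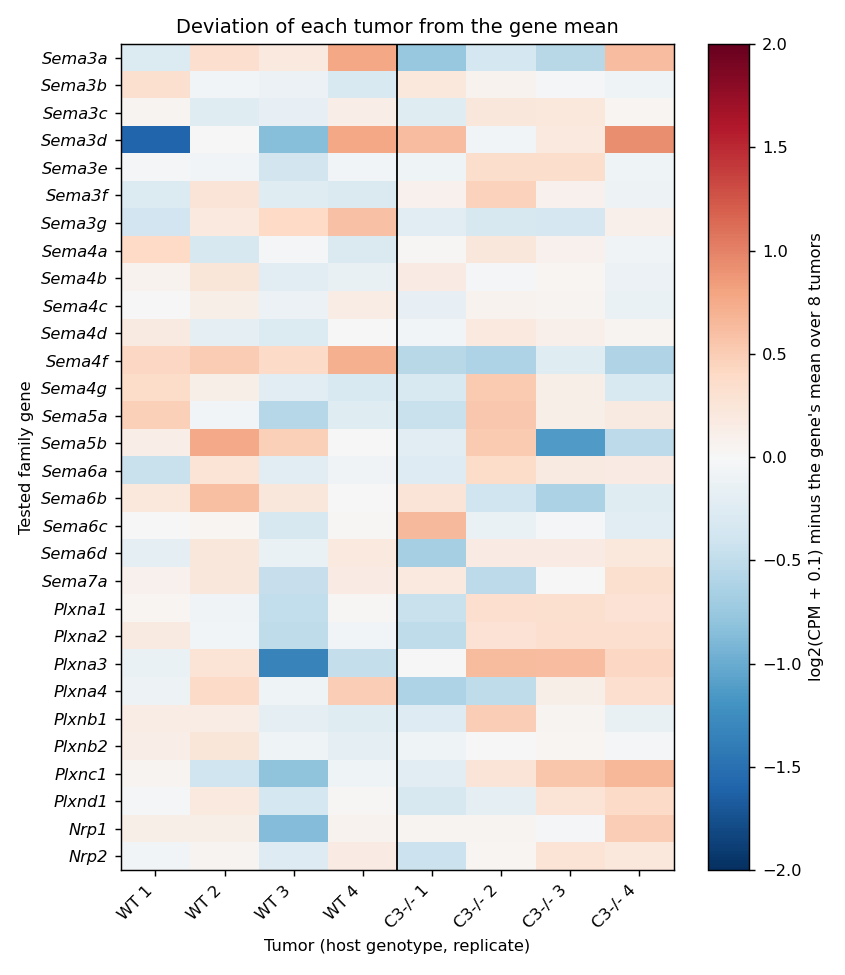
Log2(CPM + 0.1) of the 30 tested members (y axis, by class) in each of the 8 tumors (x axis, by genotype and replicate), minus the mean of the gene over all tumors; red is above and blue below that mean. The Sema4f row divides by genotype, and C3-/- replicate 1 departs from the other C3-/- tumors in Sema6d, Plxna1 and Plxna2.

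The proteins that act with semaphorins were taken from a list of 54 co-receptors, other neuropilin ligands, cytoplasmic effectors and cutting proteases. Of the 52 tested, 18 were higher and 34 lower in C3-/- tumors, with a median log2 fold change of -0.07. edgeR and DESeq2 each called 0 of them, and 1 (1.92%) had an unadjusted edgeR p below 0.05, against 5.11% of all genes. The 14 tested co-receptors had 9 higher and 5 lower, the 3 other neuropilin ligands 0 higher and 3 lower, the 31 effectors 8 higher and 23 lower, and the 4 proteases 1 higher and 3 lower. Mical1, a redox enzyme that takes apart actin filaments downstream of plexins, was the 1 gene whose groups did not overlap. It had 36.7, 35.04, 33.1 and 33.7 CPM in WT and 32.2, 31.3, 31.6 and 31.4 CPM in C3-/- tumors. That difference was small, a log2 fold change of -0.13 with an unadjusted edgeR p of 0.250, and 1 of 52 (1.92%) is below the 3.73% of all genes.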

How the data were processed

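Poly-A-selected RNA of 8 tumors was sequenced. The submitters' processing notes name HISAT2 2.0.5, DESeq2 1.20.0 and build mm39, while the study's methods name STAR and HTSeq. The strand setting of the counting was not given in the sources used here. The authors deposited whole-number read counts per gene, used here, beside normalized count signal, FPKM, log2 fold changes and p-values or q-values of their own comparison, which were not used. The gene length the authors deposited gave CPM per kilobase.

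Counts of genes passing edgeR's filterByExpr (minimum count 10) were TMM-scaled and tested between genotypes without covariates with glmQLFit and glmQLFTest in edgeR 4.0.16 (limma 3.58.1, R 4.3.3), with Benjamini-Hochberg adjustment over all 16610 genes. The SE is the log2 fold change divided by the root of the F statistic, and intervals use the t distribution with the fit's degrees of freedom. Single genes had an exact two-sided permutation test of log2(CPM + 0.1). Calls were at an adjusted p below 0.05. DESeq2 1.42.0, limma-voom, other size factors, no filter, a replicate block and each tumor left out were alternatives, and DESeq2 with each tumor left out was added after the data were seen. Scripts were tested on simulated data. Depth was 13266029 to 23354212 counts per tumor.

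The members and lists were chosen with earlier results of these data known. Full values are given for Sema4f, for members with an unadjusted p below 0.05 or groups that do not overlap, and for the highest member of each class per length. List genes are named at an unadjusted p below 0.01 or where groups do not overlap. Promoters are those of the RefSeq table for GRCm38.p6, which has entries for 26 of the 31 members (not for Sema3b, Sema3f, Sema6a, Plxna1 and Plxna4). The printed promoters were placed in GRCm39 by exact match.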

Additional observations from a re-analysis of the deposited data

Results flagged for a closer look

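Each of the 30 tested members was examined in each genotype for a tumor standing far from the other 3, by the gap to its nearest neighbor over the whole range. Of the 60 groups, 7 had such a tumor, where chance gives about 1 in 20.

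WT replicate 3 was low for 3 members. Sema3e was at 24.1 CPM there against 29.9 to 30.2 CPM in the other WT tumors, Sema6c at 4.44 CPM against 5.60 to 5.73 CPM, and Nrp1 at 24.9 CPM against 47.4 to 49.2 CPM. WT replicate 2 was high for Sema3f, at 75.7 CPM against 51.7 to 53.3 CPM.

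C3-/- replicate 1, the tumor with the high acinar markers, was low for 3 members. Sema6d was at 19.7 CPM against 34.9 to 36.1 CPM in the other C3-/- tumors. Plxna1 was at 86.7 CPM against 143.0 to 148.1 CPM, and Plxna2 at 33.8 CPM against 59.0 to 61.0 CPM.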

How the results depend on the processing

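The lower Sema4f level in C3-/- tumors kept its direction in 15 of 15 alternatives, from -1.12 to -0.95 with 1 tumor left out. Its edgeR and voom adjusted p was 0.252 at its lowest, whereas DESeq2 gave -1.03 with an adjusted p of 0.000248. DESeq2 called 16 genes and 1 member where edgeR called 0, and the cause was not tested. With 1 tumor left out, edgeR called 0 to 4 genes and the members with separate groups numbered 1 to 6, or 3.23% to 20% of those tested, against 4.52% to 13.8% of all genes. In DESeq2, a set of fits chosen after the data were seen, Sema4f ranged from -1.13 to -0.96 with adjusted p from 0.000549 to 0.101, and 0 to 2 members were called. These fits called 116 genes in all without C3-/- replicate 1, where 2 members were called, and 1 gene without WT replicate 4, where 0 were. In the other 6 fits, which called 2 to 28 genes, Sema4f was the 1 member called.

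Sema7a, at 0.00, changed sign with other size factors (-0.0040), DESeq2 (-0.0040), voom (-0.012), no filter (-0.0011) and the replicate block (-0.0048). With 1 tumor left out the log2 fold change crossed 0 for 10 members with small differences: Sema3b -0.0128 to 0.20, Sema4b -0.0453 to 0.11, Sema4g -0.17 to 0.17, Sema6c -0.0644 to 0.27, Sema6d -0.10 to 0.14, Sema7a -0.13 to 0.15, Plxnb1 -0.0808 to 0.18, Plxnb2 -0.12 to 0.0169, Plxnd1 -0.0297 to 0.20 and Nrp2 -0.0246 to 0.20.

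No label says that tumors with the same replicate number are paired. Same-numbered tumors correlated at -0.0271, 0.493, -0.356 and 0.594 in their deviations from the genotype means. Differently numbered tumors were not compared, so these values do not settle whether the tumors are paired. With the replicate block Sema4f was -1.02 (edgeR adjusted p 0.998). edgeR called 0 members and 0 genes both with and without the block. Depth limits Plxnb3, Sema3d and Sema5b, and 10 members overlap another gene of the count table, 7 of them on the opposite strand. GENCODE vM39 has an opposite-strand overlap for more members, such as Gm66412 with Sema4f and Mrpl43 with Sema4g, which are not among these 10.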

Other observations

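Other guidance families were measured in the same tumors. Of the netrins, slits and their receptors, 15 of 17 listed genes were in the table and 13 were tested. Of these, 7 were higher and 6 lower in C3-/- tumors, with a median log2 fold change of 0.12. edgeR and DESeq2 called 0 of them, and 0 had an unadjusted edgeR p below 0.05, against 5.11% of all genes tested.

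Of the ephrins and Eph receptors, which carry signals between touching cells, 18 of 22 listed genes were tested, 14 higher and 4 lower, with a median log2 fold change of 0.12. edgeR and DESeq2 called 0, and 2 had an unadjusted edgeR p below 0.05, both higher in C3-/- tumors. That is 11.1% against 5.11% of all genes tested.

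Summed markers of other cells were, in WT and then C3-/- tumors, 5053 to 8044 and 3039 to 7946 CPM for fibroblasts and 556 to 679 and 425 to 930 CPM for macrophages. T-cell markers summed to 0.213 to 1.49 and 0.504 to 3.32 CPM. Skeletal muscle markers spread from 0.904 to 2786 CPM in WT and from 1.68 to 2633 CPM in C3-/- tumors. Hepatocyte markers summed to 59.4 to 192 and 62.1 to 126 CPM. Of the 4, 3 were lower and 1 higher in C3-/- tumors, with a median log2 fold change of -2.28, and 2 had an unadjusted edgeR p below 0.05, both lower. Their part in the Sema4f difference was not tested. Among them Fgb had a log2 fold change of -4.62 and an unadjusted edgeR p of 0.00809 with overlapping groups, and edgeR did not call it.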
